A study of Mus musculus with 3 samples.

Results

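Bipolar cells carry the output of rods and cones to the inner retina, and 4 of their signalling genes, Gnao1, Trpm1, Pcp2 and Prkca, were followed in 3 pools of mouse retina that lacked Rp1. They were chosen by name: all probe sets whose single symbol in the platform annotation was one of the 4 were taken, with no threshold on their values. This gave 9 probe sets, 5 for Gnao1, 2 for Pcp2 and 1 each for Trpm1 and Prkca, among 10833 probe sets with 1 symbol, which cover 8251 genes. The 3 arrays form 1 group: neural retina of Rp1 knockout (Rp1-/-) mice of a mixed background of 129/SvEv and C57BL/6, aged 10 days, with 3 to 4 mice in each pool and tissue taken between 1 and 2 pm. Both copies of Rp1, which encodes a protein on the microtubules of photoreceptor outer segments, are lost in every sample by the descriptions, and no array of another genotype was analysed here. The title of the first array, unlike the others, carries no rp1 tag, so the genotype of pool 1 rests on its description alone. The values below therefore describe mutant retinas and how far 3 pools of them differed, and say nothing of an effect of the knockout.

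ON bipolar cells answer to light through a cascade that works by sign inversion. In darkness, glutamate released by photoreceptors binds the receptor mGluR6 on bipolar cell dendrites, the receptor activates the G protein Go, and Go keeps the cation channel TRPM1 closed. Light lowers glutamate release, Go is switched off by a complex of an RGS protein with Gnb5, and TRPM1 opens. Gnao1 encodes the alpha subunit of Go, Trpm1 the channel, and Pcp2 a small GoLoco protein that binds the alpha subunit of Go. Prkca encodes protein kinase C alpha, whose antibody is the usual label of rod bipolar cells. At this age bipolar cells are still maturing and the eyes have not opened.

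The promoters of Trpm1 are shown because that gene is used by 2 kinds of cell that an eye dissection can hold, ON bipolar cells and pigmented cells. All 4 genes were matched in the RefSeq table of promoter windows (build GRCm38.p6, 250 bases before to 50 bases after a transcript start), with 8 windows in all. Capitals mark matches on either strand to TAATCC, the core bound by the homeodomain factors Otx2 and Crx, or to CACGTG or CATGTG, forms of the E-box that factors such as Mitf of pigment cells bind. The Pcp2 window of its most upstream start, which holds none of these letters, is shown beside them since Pcp2 had the widest spread of the members above background in all pools. The windows lie at chr7:64153585-64153884 (plus strand), chr7:64185209-64185508 (plus strand) and chr8:3625498-3625797 (minus strand), and each is written 5′ to 3′ along the gene.
Trpm1 upstream start: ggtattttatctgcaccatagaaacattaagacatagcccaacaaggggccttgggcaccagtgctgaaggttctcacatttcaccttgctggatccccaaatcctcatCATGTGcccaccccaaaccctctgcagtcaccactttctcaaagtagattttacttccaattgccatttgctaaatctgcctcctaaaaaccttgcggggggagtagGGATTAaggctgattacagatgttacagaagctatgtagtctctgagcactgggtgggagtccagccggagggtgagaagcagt
Trpm1 downstream start: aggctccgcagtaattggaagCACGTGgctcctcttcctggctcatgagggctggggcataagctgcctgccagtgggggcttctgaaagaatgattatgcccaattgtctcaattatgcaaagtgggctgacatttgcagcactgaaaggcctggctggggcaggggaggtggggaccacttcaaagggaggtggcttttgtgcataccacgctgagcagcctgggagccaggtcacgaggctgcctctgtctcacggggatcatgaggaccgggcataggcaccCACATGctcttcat
Pcp2 most upstream start: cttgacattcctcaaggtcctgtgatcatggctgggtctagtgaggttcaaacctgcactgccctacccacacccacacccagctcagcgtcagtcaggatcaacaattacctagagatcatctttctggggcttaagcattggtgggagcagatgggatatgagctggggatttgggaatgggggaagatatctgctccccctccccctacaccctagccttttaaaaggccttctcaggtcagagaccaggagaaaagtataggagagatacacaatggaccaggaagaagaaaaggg

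The upstream Trpm1 window held 1 TAATCC match, read on the opposite strand and ending 29 bases before the start, and 1 CATGTG match. The downstream window held 1 CACGTG and 1 CATGTG match and none to the homeodomain core. CATGTG was not particular to Trpm1: the Gnao1 window and the most downstream Pcp2 window each held 1 match. The Prkca window held no match to any of the motifs. Of all 32851 windows in that reference, TAATCC was found in 7.06%, the CACGTG form in 7.15% and CATGTG in 14.2%. A match to so short a motif is a description of letters only. The Gnao1 and Prkca windows differed from these in composition, with 76.3% and 75.3% G and C against 48.3% and 57.3% for the Trpm1 windows and a median of 52.7% over all windows.

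Signals are in the scaled intensity units of the deposited table, and means carry the SD over n = 3 pools. A background floor on each array, at 100.5, 124.8 and 120.4 units for pools 1, 2 and 3, was taken from control probe sets for bacterial and yeast sequences. A probe set is called measured where its mean lies above the mean floor. Of the 9 probe sets of the 4 genes 8 were measured and 7 lay above the floor in all pools, so each gene had at least 1 probe set above background in every pool. Levels of different probe sets are not compared, since probes differ in affinity. The 3 arrays had been scaled to equal trimmed means, between 65.5% and 69.7% of gene probe sets lay above the floor, and the Actb control had 3′ to 5′ ratios of 1.10, 1.40 and 1.63 in pools 1, 2 and 3, and Gapdh 0.82, 0.90 and 0.75. The pools also stood apart in lens markers, which were lowest in pool 2 and highest in pool 3.

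Gnao1, the alpha subunit of Go, lay far above background by its strongest probe set (103843_at). This set had 4890.6 in pool 1, 6617 in pool 2 and 6227.2 in pool 3, a mean of 5912 ± 905. Pool 1 was the low one, and the whole range was 1.35-fold. The f-class set (161902_f_at), whose probes can bind related transcripts, kept that order with 361.4, 707.1 and 552.9, a range of 1.96-fold. Another set (100388_at) had 330.6, 375.5 and 260.1, with pool 3 low in place of pool 1.

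The remaining Gnao1 sets were at or under background in some pools. Probe set 104414_at had 356.6 in pool 1 and 346.9 in pool 3, but 79.5 in pool 2, where it lay under the floor of 124.8. Against that floor the signal was at least 2.86-fold higher in pool 1 than in pool 2. Probe set 103844_at was under the floor in all pools, at 31.6, 34.1 and 65.3, and was not measured. The measured Gnao1 sets thus did not share a pattern: pool 2 was highest in 3 of them and lowest in the fourth. The log2 difference between pools 1 and 2 ran from -0.97 to 1.51 over these 4 sets. Gnao1 is transcribed into several splice forms, and the annotation used does not say which form a probe set reads.

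Pcp2, the GoLoco protein of bipolar and Purkinje cells, was read differently by its probe sets. The set 102376_r_at, whose probes were chosen under relaxed rules, had 1493.1 in pool 1, 848.9 in pool 2 and 2023.1 in pool 3. Pool 2 was the low one, 2.38-fold under pool 3. The other set (162452_at) had 224.6, 312.5 and 218.6, so that pool 2 was the high one and pools 1 and 3 were alike. On the log2 scale, pool 2 minus pool 3 was -1.25 by the first set and 0.52 by the second.

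Such disagreement is common on these arrays. Of 1095 genes with at least 2 measured probe sets, 717 (65.5%) had sets that put their highest signal in different pools. Among the 948 with exactly 2, as for Pcp2, this held for 63.3%. Among the 16 with 4, as for Gnao1, it held for 15 (93.75%). Unrelated sets would also put their highest signal in different pools for most genes. These shares therefore do not show that sets of the same gene agree in pool order. A pool order read from 1 probe set is thus not a measurement of the gene alone. This bears on Trpm1 and Prkca, which have only 1 set each, and on the pool orders given below for other genes.

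Trpm1, the channel that the cascade closes, was the steadiest member in log2 SD. It had 320.3 in pool 1, 315.5 in pool 2 and 412.5 in pool 3, a mean of 349.4 ± 54.7. Pools 1 and 2 differed by 0.02 on the log2 scale and pool 3 was higher, within a range of 1.31-fold. Each pool lay between 2.53 and 3.43 times its floor, so the gene was detected but not far above background.

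Prkca, the kinase that labels rod bipolar cells, had 548.2 in pool 1, 413.2 in pool 2 and 331.7 in pool 3, a mean of 431 ± 109. Pool 1 was the high one, and the range was 1.65-fold. The signal was 5.46, 3.31 and 2.76 times the floor in the 3 pools. In retina this kinase is also made by some amacrine cells, and in a bulk sample fewer cells of a type and less RNA per cell cannot be told apart.

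**Figure D1:**
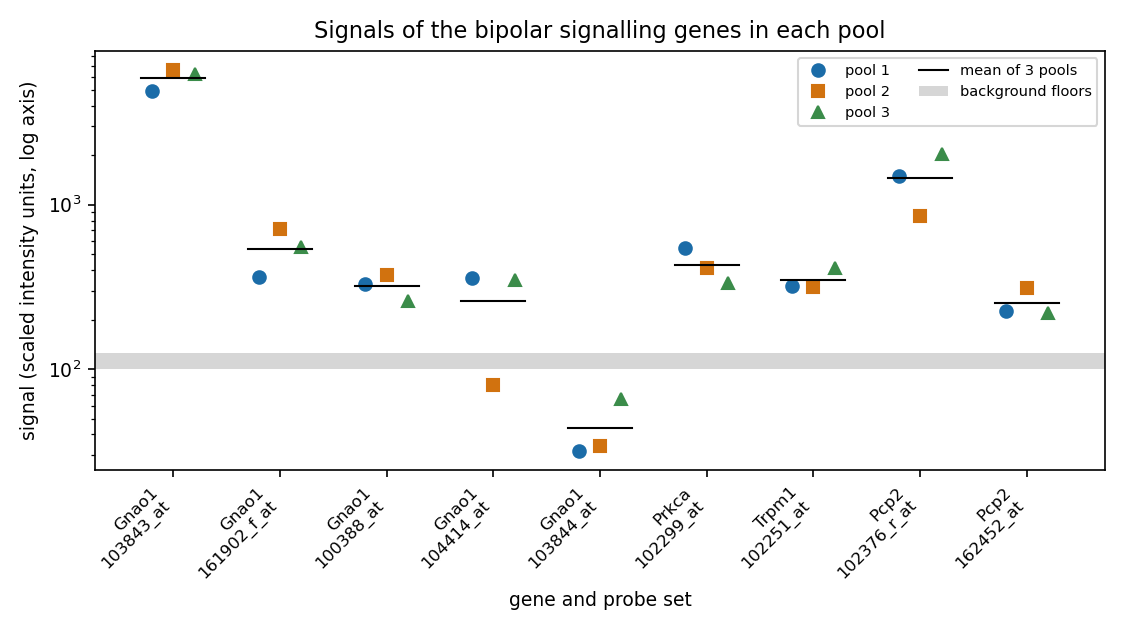
Signal of each of the 9 probe sets in each pool on a log axis, in scaled intensity units; points are single pools, bars are means of 3 pools and the grey band spans the background floors of 100.5 to 124.8. The strongest Gnao1 set lies near 5912, the 2 sets of Pcp2 place pool 2 at opposite ends, and 1 Gnao1 set falls under the band in pool 2 alone.

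No measured probe set of the 4 genes was called variable between pools beyond what its signal level gives. The test fitted a variance distribution with an intensity trend to all 8327 measured probe sets (limma, Benjamini-Hochberg adjustment over all of them, threshold 0.05) and called 18 of them, or 0.216%. Adjusted p-values for the 8 sets ran from 0.67 (limma, Pcp2 set 102376_r_at) to 0.99 (limma, Trpm1). An unadjusted p under 0.05 was found for 2 of 8, that Pcp2 set and Gnao1 set 104414_at, against 445 of 8327 or 5.34% over all. With 3 pools a miss of the threshold does not show that the pools were alike.

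The sets differed among themselves in how wide they spread. The SD of log2 signal was 0.22 for Trpm1, 0.23 for the strongest Gnao1 set and 0.36 for Prkca, against a median of 0.27 over all measured probe sets. The median was 0.18 among sets of like signal to the Gnao1 one, of which 36.6% spread more widely. The Pcp2 set 102376_r_at had 0.64, and only 2% of the 500 probe sets nearest to it in mean signal had a larger SD. For Gnao1 set 104414_at, at 0.86, this share was 7.6%, and for its f-class set, at 0.49, it was 11.2%. For the other 5 measured sets this share lay between 27.2% and 67%.

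**Figure D2:**
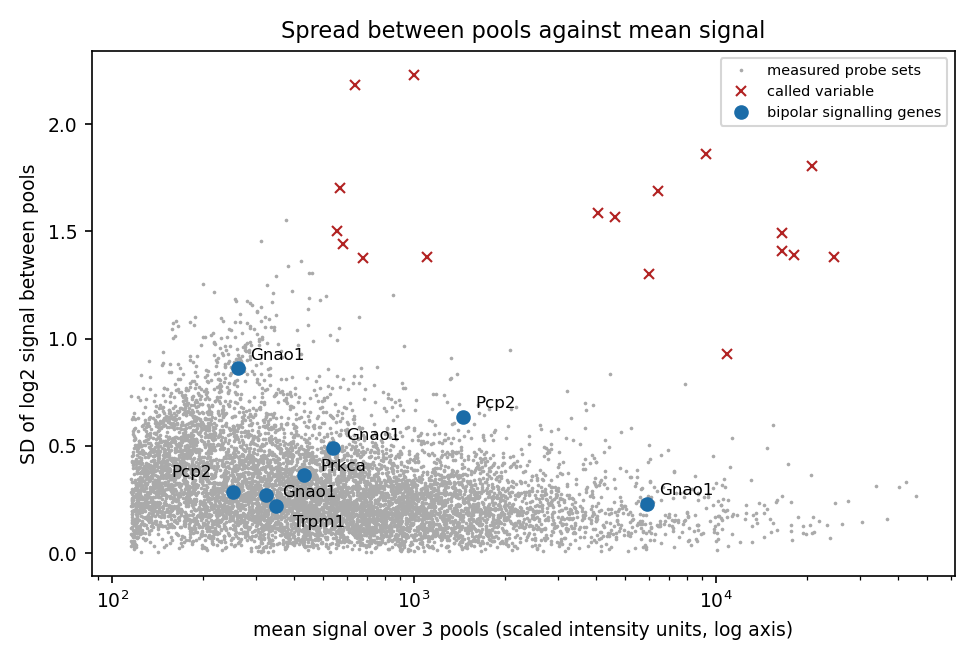
SD of log2 signal between the 3 pools against mean signal on a log axis, for 8327 measured probe sets (grey), the 18 called variable (crosses) and the 8 measured sets of the bipolar signalling genes (blue). The blue points lie within the grey cloud, with 1 set of Gnao1 (0.86) and 1 of Pcp2 (0.64) toward its upper edge.

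Some of the sets differed by more than 2-fold between pools. Between pools 1 and 2 this held for 1 of 8 sets, the Gnao1 set 104414_at, against 6.24% of all measured probe sets. Between pools 2 and 3 it held for 2 of 8, that set and the Pcp2 set 102376_r_at, against 5.10%, and between pools 1 and 3 for 0 of 8, against 6.92%. Over all 3 pools 2 of 8 sets had a range past 2-fold, against 13.2%. Both rest on the low value of pool 2: without pool 2 no set passed 2-fold. Without pool 3 the Pcp2 set no longer passed and 1 set was left.

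The 8 measured sets of the 4 genes shared no single pool order. Pool 2 was highest for both Gnao1 sets with the strongest signal, pool 1 for Prkca, and pool 3 for Trpm1 and for the stronger Pcp2 set. Of the 6 possible orders of 3 pools, 5 occurred among the 8 sets, and none more than 2 times. Unrelated sets would also be spread over most orders, and sets of 1 gene differed, so this does not show whether the genes vary together. In log2 units the 8 sets had median differences of -0.08 (pool 1 minus pool 2), -0.15 (pool 1 minus pool 3) and 0.20 (pool 2 minus pool 3), against -0.01, -0.01 and 0.01 over all measured probe sets.

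Genes of the wider mGluR6 cascade were detected in all pools where they were represented. Of 17 genes in a list of this cascade and its partners, 8 had a probe set with a single symbol. All 8 lay above the floor in every pool, as did 5475 of all 8251 genes. The receptor gene Grm6 was not analysed here, and a bulk sample does not show which cells made these transcripts. Each gene was read by its probe set with the highest mean signal. Gnb3, the beta subunit that partners Go in ON bipolar cells and transducin in cones, had 6586.4, 4756.8 and 6497 in pools 1, 2 and 3. Gnb5, the beta subunit that stabilises RGS proteins of the R7 class, had 905.2, 1264.1 and 1295.4. Pool 2 was low for Gnb3, and pool 1 for Gnb5, both within 1.43-fold.

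The RGS proteins that switch Go off, Rgs7 and Rgs11, differed in spread. Rgs11 had 704.5 in pool 1, 597.1 in pool 2 and 619.4 in pool 3, within 1.18-fold and with the smallest SD of the list (0.13). Its r-class set lay below background throughout. Rgs7 had 312.3 in pool 1, 680.2 in pool 2 and 463.4 in pool 3. Pool 1 was low, 2.18-fold under pool 2. Gnb5 and Rgs7 were both lowest in pool 1, as was the strongest Gnao1 set, whereas Rgs11, Gnb3 and Prkca were highest there.

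Across the 8 genes the median SD was 0.28, against 0.26 over 6210 measured genes. None of the 8 was called variable (limma), against 14 of 6210 measured genes, and 2 of 8, Pcp2 and Rgs7, had a range past 2-fold, against 12.1% of measured genes. Pool 1 minus pool 2 gave a list median of 0.13 in log2 units, while pool 1 minus pool 3 gave -0.36 and pool 2 minus pool 3 gave -0.04. With the mean over all probe sets of a gene in place of its strongest set, these medians were -0.01, -0.18 and -0.06, so the first lost its direction. Between pools 1 and 3 the difference was negative for 5 of the 8 genes and positive for 3.

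**Figure D3:**
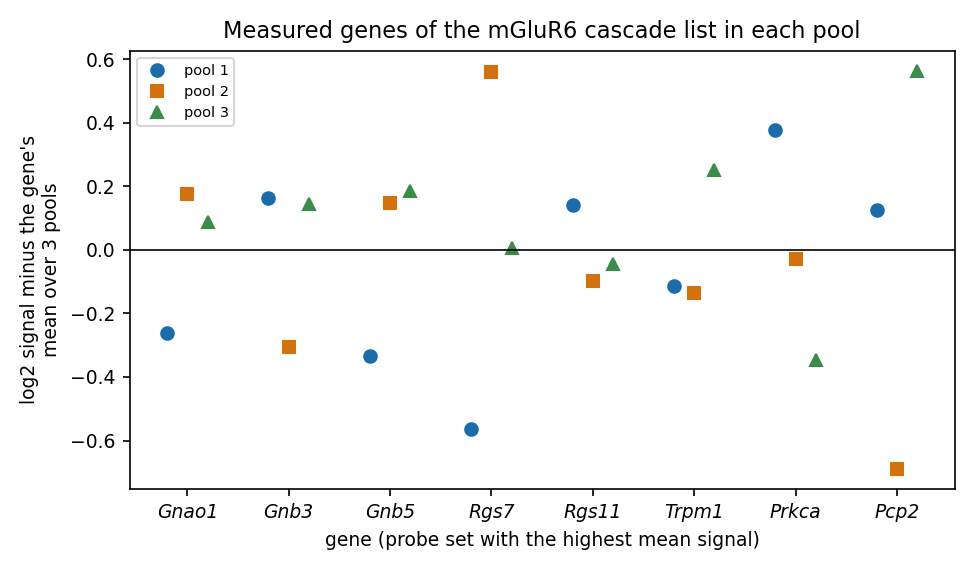
Log2 signal of the 8 measured genes of the mGluR6 cascade list in each pool, minus each gene's own mean over 3 pools; each point is 1 pool. Pool 1 is lowest for Gnao1, Gnb5 and Rgs7 and highest for Gnb3, Rgs11 and Prkca, and Pcp2 and Rgs7 spread past 2-fold.

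Genes of bipolar cell identity were thinly represented. Of 25 in the list 7 had a probe set and 5 were measured. Isl1, a homeodomain factor of ON bipolar, ganglion and some amacrine cells, had 1515.8, 1465.5 and 966.3 in pools 1, 2 and 3. Fezf2, a zinc finger factor, had 852.4, 584.3 and 539.1, and Lhx3, a LIM homeodomain factor, 575.1, 480.3 and 556. All 3 were above the floor in every pool, and each was highest in pool 1, as was Prkca. Isl1 was only 0.05 above pool 2 and Lhx3 only 0.05 above pool 3 on the log2 scale. The 2 orders with pool 1 highest were held by 17.8% and 16.3% of all measured probe sets. Car8, a carbonic anhydrase relative found in rod bipolar cells, went the other way with 174.9, 343.6 and 281.8. Syt2, a synaptotagmin of some bipolar cells, had 94.6 in pool 1, under the floor, and 259.3 and 266.2 in pools 2 and 3. A second Syt2 set passed the floor by a little in pool 1 (104.3) and in no other pool. Grik1 (80.7, 45.3 and 124) and Sebox (103.9, 51.3 and 128.5) were not measured. None of the 5 was called variable (limma), against 0.225% of measured genes. Their median SD was 0.36, and 0.15 without pool 1, 0.47 without pool 2 and 0.39 without pool 3. Here and below, an SD over 2 pools is not directly comparable with an SD over 3.

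Among G protein alpha subunits Gnao1 was one of 12 measured genes of 14 with a probe set. Gnas, the stimulatory subunit, had 18469.7, 17056.8 and 18249.6, a range of 1.08-fold. Gnai2, an inhibitory subunit, had 8899.6, 7306.9 and 7552.2, and Gnat1, rod transducin, 3228.9, 6226.7 and 3765.6. Pool 2 was high for Gnat1, as it was for Gnao1, and low for Gnas and Gnai2. None of the 12 passed 2-fold over the pools or was called (limma), against 12.1% and 0.225% of measured genes. Their median SD was 0.26, and 0.16 without pool 1 or without pool 2, but 0.36 without pool 3. Other measured Gnai2 sets were highest in pool 2 or in pool 3. Of 11 measured beta and gamma subunits 1 was called, Gnb1, which was highest in pool 3 at 19075.3 against 5367.5 and 8246 (limma, adjusted p = 0.042), against 0.225% of measured genes. Its other 2 measured sets were also highest in pool 3 and were not called (limma, adjusted p = 0.18 and 0.59). Gnb2 had 5841.1, 4843.2 and 8986.8 and Gng3 4093.4, 3363.9 and 4325.9, also highest in pool 3.

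Of the RGS and GoLoco genes that act on Gi and Go 16 of 17 with a probe set were measured. None was called (limma), against 0.225% of measured genes. Rgs3 (1011.6, 886.1 and 984.3) and Rgs8 (785.1, 833.1 and 791.1) stayed within a narrow range, and Rap1gap had 2033.3, 1151.2 and 2024.5. Rap1gap, a GTPase activator for Rap1 that also carries a GoLoco motif in some forms, shared with the stronger Pcp2 set a low value in pool 2. A range past 2-fold was found for 5 of the 16, against 12.1% of measured genes: Pcp2, Rgs7, Rgs4 (78, 159.7 and 287.9), Rgs6 (42.2, 273.7 and 62.9) and Rgs10 (323.9, 176.6 and 109). Rgs4, Rgs6 and Rgs10 were each under the floor in at least 1 pool, so these ranges are lower bounds. Another Rgs10 set had 187.8, 189.1 and 138.3.

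The protein kinase C list held 14 measured genes of 15 with a probe set, all above the floor in every pool. None was called (limma), against 0.225% of measured genes. Prkcb, the beta form of the kinase, had 1634, 1828.8 and 1853.7, a range of 1.13-fold. The kinase substrates Marcks (4433.2, 3855.7 and 4493.3) and Marcksl1 (4910.9, 3726.2 and 4548.1) were lowest in pool 2, and the phospholipase Plcb1 (1439.4, 2105.4 and 1756.1) was highest there by its strongest set and lowest there by another (234.9, 121.4 and 173.5). Prkd1, protein kinase D, was the 1 gene of 14 past 2-fold, at 543.2, 310.7 and 205.4, against 12.1% of measured genes. It had the order of Prkca, highest in pool 1 and lowest in pool 3, an order shared by 16.3% of all measured probe sets.

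Of the TRP channels 8 had a probe set and 5 were measured, with Trpm1 the steadiest of the 5. Trpc1 had 309.6, 274.2 and 185.5, Trpv2 227.9, 191.3 and 342.1, and Trpc4 184.7, 283.7 and 123. Trpm7, a channel joined to a kinase, had 255.7, 176.4 and 73.1, the last under the floor. None of the 5 was called (limma), against 0.225% of measured genes. Their median SD was 0.43, but 0.18 without pool 3 and 0.28 with the floor at the highest control. Mcoln2, Trpc5 and Trpc6 were under the floor in all pools.

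Markers of other tissues are given beside Pcp2 and Trpm1. All 10 lens markers were lowest in pool 2 and highest in pool 3, with summed signals of 70925.8, 18819.8 and 160422 in pools 1, 2 and 3. Of these markers 7 were called variable (limma), against 0.225% of measured genes. The stronger Pcp2 set and Trpm1 had the same order as the lens markers, an order that 15.7% of all measured probe sets had. For Trpm1 pools 1 and 2 differed by only 0.02 on the log2 scale, against a median of 1.82 for the lens markers. The other Pcp2 set had pool 3 lowest. Pcp2 differed by 2.38-fold between pools 2 and 3, where Cryaa, a lens crystallin, stood at 3496.7 and 40575.6. The part of lens tissue in the Pcp2 result was not tested.

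For Trpm1 the pigmented cell markers are of interest, since the channel was first described in melanoma. Of 10 such markers 7 had a probe set and 3 were measured, with summed signals of 1100.5, 810.3 and 1780 in pools 1, 2 and 3. Pmel, a melanosome protein, had 319.7, 327.7 and 908, Dct, an enzyme of melanin synthesis, 498.6, 449.8 and 649, and Oca2, a melanosome transporter, 282.2, 32.8 and 223. Tyr, Tyrp1, Mitf and Gpr143 were not measured, and Mitf and Gpr143 were under the floor in all pools. Pmel and Dct were highest in pool 3, as was Trpm1, whereas Oca2 was highest in pool 1 and under the floor in pool 2. Trpm1 rose above pools 1 and 2 by 0.36 and 0.39 on the log2 scale without passing the test (limma, adjusted p = 0.99). The part of pigmented cells in the Trpm1 signal was not tested.

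**Figure D4:**
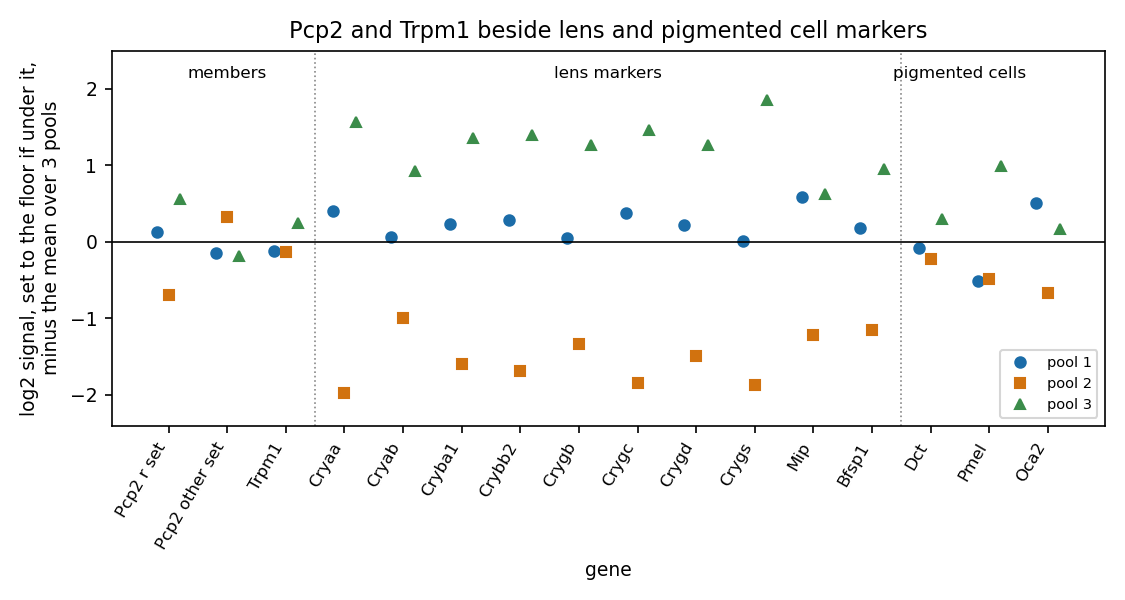
Log2 signal in each pool minus the mean over 3 pools, after values under the floor were set to it, for both Pcp2 sets, Trpm1, the 10 lens markers and the 3 measured markers of pigmented cells. All lens markers have pool 2 lowest and pool 3 highest, as has the r-class Pcp2 set. Trpm1, within 1.31-fold, has pool 3 highest and pools 1 and 2 nearly level.

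Markers of neural cells and glia are given beside Gnao1. Amacrine cells, which also use Gnao1, had 7 of 8 markers with a probe set measured. Their summed signals were 11192.7, 11070.3 and 12125.4, and their median SD was 0.30. The strongest sets weigh most in such a sum: 3 of the 7 were highest in pool 1, 3 in pool 2 and 1 in pool 3. Gad2 was under the floor in all pools. Rod markers were highest in pool 2 for 8 of 8 (summed 68464.8, 89625.1 and 79710.8). Gnao1 was highest there by 3 of 4 measured sets and lowest there by the other. Its strongest set was only 0.09 above pool 3 on the log2 scale. The orders with pool 2 highest were held by 18.2% and 15.5% of all measured probe sets. The part of either cell type in the Gnao1 signal was not tested. Müller glia markers, of which 6 of 7 were measured and Vim was under the floor in all pools, summed to 20138.3, 18217.5 and 19676.9. Of those 6, 2 were highest in pool 1, 3 in pool 2 and 1 in pool 3. The 6 ganglion cell markers summed to 6440.7, 6393.5 and 6304.2, with 3 highest in pool 1, 1 in pool 2 and 2 in pool 3. None of the markers of these 4 cell types was called (limma), against 0.225% of measured genes.

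The genes nearest to each member in pattern were found by the Euclidean distance between log2 signals centred on their own mean over the 3 pools. Distances are on the log2 scale, and with 3 pools and 8327 probe sets a close match is easy to find. The strongest Gnao1 set was nearest to Smarca5 (305.6, 414.1 and 389.1, distance 0.0018), Pgrmc1 and Gbe1. Of the other Gnao1 sets, 161902_f_at was nearest to Ndel1, Vtn and Ndufaf4 (0.020 to 0.031), 100388_at to Cramp1l, Rxra and Ddit4 (0.0062 to 0.022), and 104414_at to Mea1, Fgfr2 and Tcirg1 (0.080 to 0.155). Prkca was nearest to Sh3bp2 (224.7, 170.8 and 135.9, distance 0.010), Kcnma1 and Speg. Trpm1 was nearest to Kctd17 (428.3, 418.6 and 551.7, distance 0.0093), Clip3 and Gdi2. The stronger Pcp2 set was nearest to an r-class set of Myh4 (255.6, 146 and 347.6, distance 0.0050), then to Asprv1 and Lclat1 at 0.056 and 0.058, and the other Pcp2 set to Syncrip, Asnsd1 and Hsd3b7. No gene of the mGluR6 cascade list was among them. The members themselves were left out of the search, and only the 3 nearest genes were named for each set. With so few places among so many probe sets, this absence does not bear on whether the cascade genes vary together.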

How the data were processed

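The table deposited by the authors held linear intensity values, 1 for each probe set, from 3 Affymetrix U74Av2 arrays, the array type named in the labels. The software that made them is not given in the sources used here. It held 12488 probe sets after 1 blank row was dropped, 66 of them controls. Means after trimming 2% at each end were 500.3 on all 3 arrays, so the intensity values were not scaled again. Symbols came from the platform annotation and were looked up by gene identifier in a RefSeq gene table (GRCm38.p6), which held 10817 of 10833 and changed no symbol.

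Pool numbers follow accession order and only name the arrays. Whether any animal gave tissue to several pools is not stated in the labels, so p-values measure the spread between these RNA samples. The floor on each array was the 90th percentile of 19 bacterial and yeast control probe sets, lower values were raised to it before log2 was taken. The number of arrays limits the precision. Variability was tested with limma 3.58.1 in R 4.3.3 (intercept-only fit, robust fit of the variance distribution with an intensity trend). The procedure was also tested on simulated data. Their noise was normal with the same SD for probe sets of like signal, so that test does not settle the lack of calls here. Other steps used Python 3.11.15, pandas 2.3.3, numpy 2.4.6, scipy 1.17.1 and matplotlib 3.10.9.

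The 4 genes and the gene lists were chosen with earlier results of these data known. Genes were named by rule: every probe set of the 4 genes, the mGluR6 cascade and bipolar identity lists, for each other list of signalling genes up to 4 measured genes with the highest mean signal and up to 4 past 2-fold, and the 3 genes nearest in pattern to each measured set. Marker genes were named for the tissue they stand for, and second probe sets and genes under the floor after their values were seen. Alternatives were 4 other floors, scalings or offsets, 3 filters, 2 other fits, leaving out each array and, for the lists, the mean over all probe sets of a gene.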

Additional observations from a re-analysis of the deposited data

How the results depend on the processing

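None of the measured probe sets of Gnao1, Trpm1, Pcp2 and Prkca was called variable (limma) in the alternatives in which it was tested, 10 to 12 for each set. The lowest adjusted p of any set was 0.099, for the Pcp2 set 102376_r_at without pool 1, over a range up to 0.98 for that set (limma); for the other sets the lowest was 0.56. The count of calls over all probe sets was less stable. It was 18 in the reported fit, 11 with a pseudocount of 32 and no floor, 52 with no filter on low values and 6 with an ordinary fit. Without the intensity trend it was 0, where 377 had an unadjusted p under 0.05 (limma). It lay between 9 and 37 when 1 array was left out: 37 without pool 1, 10 without pool 2 and 9 without pool 3. The cause was not tested. The number of member sets past 2-fold was 2, and between 0 and 2 when 1 array was left out, 0 without pool 2 and 1 without pool 3. Quantile normalization, other floors and a pseudocount left it at 2, and the number of measured genes of the mGluR6 cascade list at 8. No paired analysis was possible because there is 1 group. With 3 arrays and signals of 1.82 to 5.46 times the floor for Trpm1, Prkca and the weaker Pcp2 set, small differences between pools were not detectable.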
